A study of Mus musculus with 6 samples.

Results

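Heat shock proteins and chaperones of the endoplasmic reticulum (ER) were examined in mouse corneas with experimental dry eye, taken whole after luteolin or vehicle. The set was chosen by gene symbol: the Hspa to Hspe, Hsph and Hsp90 genes, the Dnaja, Dnajb and Dnajc genes, the protein disulfide isomerases, the subunits of the cytosolic chaperonin TRiC/CCT, the heat shock factors, the Bag genes, and named ER chaperones and sensors of the unfolded protein response (UPR). This gave 111 of the 17794 genes in the table. Of these, 99 had enough reads to test.

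Chaperones help proteins to fold and to stay folded. In the cytosol, J proteins (the Dnaj genes) pass unfolded clients to HSP70, nucleotide exchange factors such as the Bag proteins and HSP110 release them, and HSP90 and TRiC/CCT complete the folding of selected clients. Heat, oxidants and detergents activate heat shock factor 1, which raises the inducible members. In the ER a separate set, led by BiP (Hspa5), folds secreted and membrane proteins, and the sensors IRE1 (Ern1), PERK (Eif2ak3) and ATF6 raise that set when unfolded protein collects. The corneal epithelium is exposed to light, drying and oxidants and is known for a high level of small heat shock protein.

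The groups were 3 corneal libraries of mice treated for 10 days with luteolin, a plant flavone, and 3 of mice treated for 10 days with vehicle. In both groups benzalkonium chloride, a preservative with detergent action, had first been used to induce dry eye, and undamaged corneas were not analysed here. The treatment label of the luteolin group carries the word control as well, so the samples were grouped by their titles. Strain, sex and age are not given in the labels, nor whether a library is 1 animal or a pool, so the spread behind each p-value is that between these libraries and may be technical.

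Library totals ran from 16084855 to 16469699 estimated counts. Markers of the corneal epithelium were high in all libraries: the keratin Krt12 averaged 27197 CPM (counts scaled to library size) in luteolin corneas and 14915 CPM in vehicle corneas, and the crystallin enzyme gene Aldh3a1 21663 CPM in luteolin corneas and 14312.5 CPM in vehicle corneas. A log2 fold change below is luteolin minus vehicle, and a gene is said to have risen or fallen where edgeR's quasi-likelihood test gave a Benjamini-Hochberg adjusted p under 0.05 over all 13838 tested genes.

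The promoters of the inducible HSP70 pair and of the mitochondrial chaperonin are shown because these genes moved in opposite directions and each window holds the letters of a heat shock element, the binding motif of the heat shock factors. The windows reach from 250 bases before to 50 bases after the gene start in RefSeq (GRCm38.p6): chr17:34972107-34972406, minus strand for Hspa1a, chr17:34959189-34959488, minus strand for Hspa1b and chr1:55087883-55088182, minus strand for Hspd1. The deposited values were made on mm9, so these coordinates are those of the sequence table alone. Capitals mark GAANNTTC, the element with 2 units, in Hspa1a and Hspa1b. In Hspd1 they mark the element with 3 units, which is GAANNTTC followed by NNGAA; it was searched on both strands, and 2 matches overlap.
Hspa1a promoter: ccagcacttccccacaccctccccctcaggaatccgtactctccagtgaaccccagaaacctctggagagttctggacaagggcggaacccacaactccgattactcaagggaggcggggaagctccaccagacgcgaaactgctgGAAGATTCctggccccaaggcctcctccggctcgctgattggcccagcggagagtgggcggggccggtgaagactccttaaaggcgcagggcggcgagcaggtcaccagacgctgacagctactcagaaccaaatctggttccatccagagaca
Hspa1b promoter: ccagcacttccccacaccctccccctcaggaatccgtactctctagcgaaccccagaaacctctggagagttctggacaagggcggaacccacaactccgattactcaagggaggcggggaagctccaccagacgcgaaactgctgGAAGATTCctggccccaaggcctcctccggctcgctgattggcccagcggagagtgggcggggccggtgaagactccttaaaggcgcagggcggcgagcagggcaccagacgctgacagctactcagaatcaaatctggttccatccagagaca
Hspd1 promoter: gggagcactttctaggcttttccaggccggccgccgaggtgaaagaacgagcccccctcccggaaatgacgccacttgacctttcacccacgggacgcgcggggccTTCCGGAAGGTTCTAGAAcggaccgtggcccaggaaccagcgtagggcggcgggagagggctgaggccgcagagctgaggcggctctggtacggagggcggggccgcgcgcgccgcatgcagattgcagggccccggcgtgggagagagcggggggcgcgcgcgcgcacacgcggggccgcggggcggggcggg
The Hspa1a and Hspa1b windows differed at 4 of 300 bases. GAANNTTC occurred in 7.86% of all 32851 windows of this length and in 16 of the 90 member genes that had a window, of which 5 rose and 6 fell. These 90 genes had 110 windows, so the share of windows and the count of genes are unlike measures. The 21 members without a window include Hspa8, Hsp90aa1, Hsp90ab1 and Hsf1. The 3-unit element, which contains or overlaps the shorter one, occurred in 0.603% of windows and in 4 member genes: Hspd1, Hspe1 and Hsph1, which fell, and Dnajb6, which did not pass. The matches in Hspd1 and Hspe1, which share a promoter region, were reverse complements of each other. They may be 1 stretch of DNA counted for 2 genes, here and for GAANNTTC. A match is a description of these letters and not a site.

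Across the set, 46 members fell, 28 rose and 25 did not pass. Over all tested genes 58.9% passed in either direction, 30.4% downward and 28.5% upward. The members' shares were 46.5% downward and 28.3% upward, so the upward share was close to that of all genes and the downward share was above it. The median log2 fold change of the tested members was -0.23, beside -0.02 for all tested genes. The changes were modest: among genes that passed, 10 members were lower by over 1 on the log2 scale (15.1% of all tested genes) and 1 was higher by over 1 (4.61% of all tested genes). The members that fell ran from -2.19 to -0.22 and those that rose from 0.16 to 1.49. For 79 of 99 members every luteolin library lay on one side of every vehicle library, which held for 67.4% of all tested genes.

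Scaling bears on the split. With library sizes only, in place of TMM (trimmed mean of M-values) factors, the median of all tested genes was -0.13, and 18 members rose and 50 fell, so that 73.5% of the member calls were downward in place of 62.2%. Of the calls over all tested genes 63.6% were then downward, in place of 51.6%. With limma-trend on log2(FPKM + 1), 17 members rose and 53 fell, and 65.1% of the calls over all tested genes were downward. In the same libraries the summed level of 7 corneal epithelial genes was 75008 to 77835 CPM in luteolin corneas and 43299 to 51145 CPM in vehicle corneas. All 7 rose (6 with library sizes only), and their part in the scaling was not tested. The dot plot by family sets the members' changes beside the median of all genes.

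**Figure D1:**
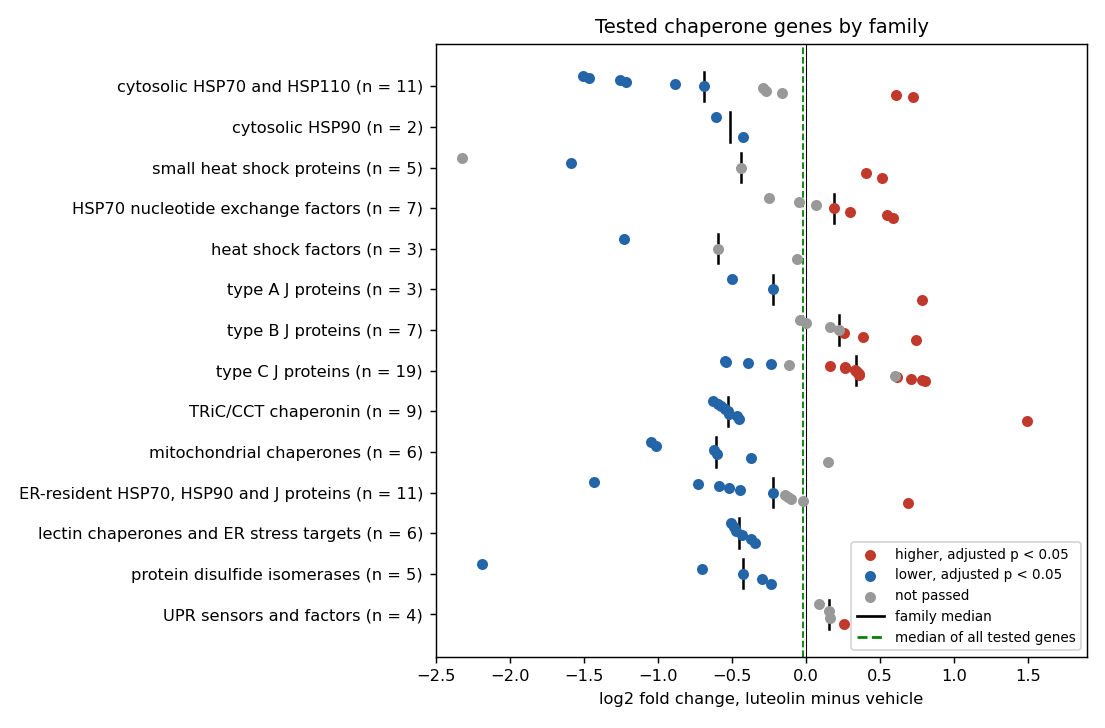
Log2 fold change (luteolin minus vehicle, x axis) of each tested member except Hspbap1, by family (y axis), with red and blue points for members higher and lower at an adjusted p under 0.05, black bars for family medians and a dashed line for the median of all tested genes. Lower calls left of 0 include 8 of 9 tested TRiC/CCT genes and all 5 protein disulfide isomerases of the set. Higher calls right of 0 include 13 of 19 type C J proteins not grouped with the ER or mitochondria (7 with library sizes only).

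In the cytosolic HSP70 family the constitutive Hspa8 and the inducible pair Hspa1a and Hspa1b went in opposite directions. Hspa8 (gene ID 15481), the constitutive HSC70 that folds new proteins and uncoats vesicles, had 479, 453 and 463 CPM in luteolin corneas 1 to 3, against 1445, 1139 and 1373 CPM in vehicle corneas 1 to 3. All luteolin libraries lay far below the lowest vehicle library, and Hspa8 was 2.84-fold lower (log2 fold change -1.50, SE 0.097, adjusted p = 6.02e-05). Hspa1b (gene ID 15511), a stress-inducible HSP70, had 694, 767 and 759 CPM in luteolin corneas, against 417, 457 and 469.5 CPM in vehicle corneas. Every luteolin library was above every vehicle library (log2 fold change 0.72, SE 0.073, adjusted p = 0.000233). Its near-identical neighbour Hspa1a (gene ID 193740) had 180.0, 265 and 232 CPM in luteolin corneas, against 122, 173 and 149 CPM in vehicle corneas. The lowest luteolin library was only just above the highest vehicle library (log2 fold change 0.61, SE 0.167, adjusted p = 0.0166), and the call ended without luteolin 2 (log2 fold change 0.46, adjusted p = 0.0520).

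The counts of Hspa1a and Hspa1b had decimals in all 6 libraries, which estimated counts take where reads are shared among genes, so the pair is firmer as a sum. Hspa1a and Hspa1b together stood at 874, 1032 and 991 CPM in luteolin corneas, against 539, 629 and 619 CPM in vehicle corneas. On the TPM (transcript abundance) scale, which takes gene length into account, their sum was 1.31, 1.64 and 1.54 times the level of Hspa8 in luteolin corneas, against 0.268, 0.396 and 0.323 times in vehicle corneas. The inducible pair thus exceeded Hspa8 in each luteolin library and stood below it in each vehicle library.

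Of the 3 HSP110 proteins, relatives of HSP70 that act as its nucleotide exchange factors, Hspa4l and Hsph1 fell. Hspa4l (gene ID 18415) had 17.0, 14.8 and 17.0 CPM in luteolin corneas, against 53.4, 39.5 and 41.5 CPM in vehicle corneas (2.75-fold lower, log2 SE 0.132, adjusted p = 0.000159). Hsph1 (gene ID 15505) had 33.3, 27.6 and 26.4 CPM in luteolin corneas, against 60.6, 47.9 and 52.6 CPM in vehicle corneas (log2 fold change -0.89, SE 0.120, adjusted p = 0.000762). The groups of both genes were well apart. Hspa4, the highest of the 3 in TPM, did not pass (log2 fold change -0.17, adjusted p = 0.156) and passed without vehicle 2 or with library sizes only.

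Among the other HSP70 genes, Hspa14, a ribosome-associated form, fell (log2 fold change -0.69). Hspa12a and Hspa12b, distant relatives, fell from low levels (log2 fold changes -1.22 and -1.26, with at most 2.13 CPM in luteolin corneas and at most 5.85 CPM in vehicle corneas). Hspa12b is known from endothelial cells, and its call ended without luteolin 2 or luteolin 3. In the same libraries 7 of 8 blood vessel genes fell, with a summed level of 34.9 to 41.5 CPM in luteolin corneas and 149.8 to 254 CPM in vehicle corneas, and none was at 0. Their part in the result was not tested, and in whole tissue fewer cells of a type and less RNA per cell cannot be told apart. Hspa2 (-0.29) and Hspa1l (-0.27), both known mainly from testis, did not pass. In all, 6 of the 11 cytosolic HSP70 and HSP110 genes fell and 2 rose. Over all tested genes 30.4% fell and 28.5% rose.

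**Figure D2:**
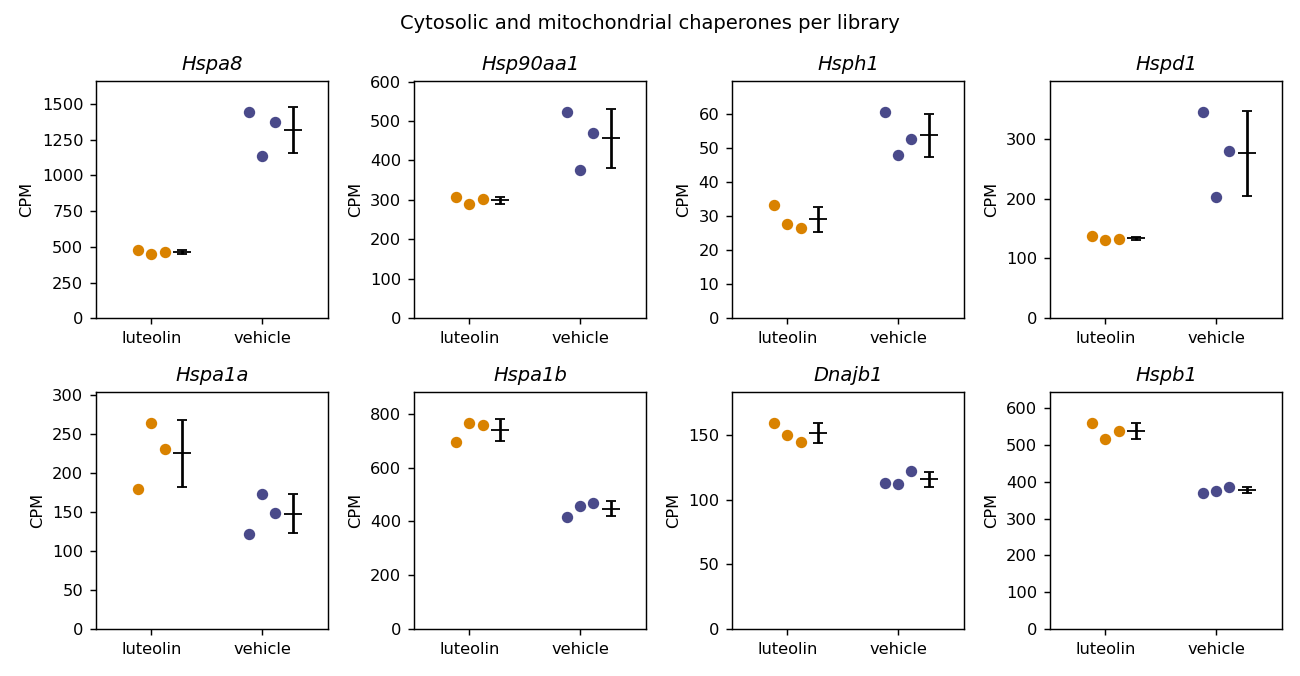
CPM per library (points, y axis starting at 0) of 8 chaperone genes in luteolin (left) and vehicle (right) corneas, with the mean and SD of 3 libraries beside the points. Hspa8, Hsp90aa1, Hsph1 and Hspd1 are lower in every luteolin library, and Hspa1a, Hspa1b, Dnajb1 and Hspb1 are higher in every luteolin library.

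Both cytosolic HSP90 genes fell. Hsp90aa1 (gene ID 15519), the inducible alpha form, had 307, 289.9 and 301 CPM in luteolin corneas, against 523, 375 and 471 CPM in vehicle corneas (log2 fold change -0.61, SE 0.117, adjusted p = 0.00365). Hsp90ab1 (gene ID 15516), the constitutive beta form, had 1137, 1105 and 1211 CPM in luteolin corneas, against 1670.0, 1321 and 1646 CPM in vehicle corneas (log2 fold change -0.42, SE 0.101, adjusted p = 0.00885). For both, vehicle 2 was the lowest vehicle library and still lay above every luteolin library. A list of 17 co-chaperones of HSP90 and HSP70 was drawn from textbook knowledge, with earlier results of these data known. Of these, 9 fell and 3 rose, with a median of -0.21, where 30.4% of all tested genes fell and 28.5% rose. Ahsa2, an activator of the HSP90 ATPase, and Ppid, the cyclophilin 40 gene, had the smallest p (log2 fold changes -0.62 and -0.62, adjusted p = 0.00089 and 0.00166). The calls of the 3 that rose, Cdc37l1, Unc45a and Tomm34, were each between 0.16 and 0.25, and 0 co-chaperones rose with library sizes only, with upper quartile factors or without any 1 luteolin library, and 1 without vehicle 1 or vehicle 3.

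The small heat shock proteins, which hold unfolded proteins without using ATP, were split. Hspb1 (gene ID 15507), the HSP25 of mice, had 561, 515 and 538 CPM in luteolin corneas, against 369.7, 375 and 387 CPM in vehicle corneas. The groups were far apart relative to their spread, and Hspb1 rose 1.43-fold (log2 fold change 0.51, SE 0.059, adjusted p = 0.000408). Per length it had the highest level of all members in luteolin corneas, 1329 ± 71.5 TPM, and 945 ± 1.26 TPM in vehicle corneas (SD, n = 3 each), where Hspa8 and Hsp90ab1 averaged 1078 and 1030 TPM. Hspb8 (gene ID 80888), the partner of Bag3 in clearing misfolded protein, had 12.2, 12.1 and 18.6 CPM in luteolin corneas, against 49.99, 39.7 and 39.3 CPM in vehicle corneas. It fell 3.003-fold (log2 SE 0.186, adjusted p = 0.000426), and luteolin 3 was the highest of its group. Hspb11, which is better known as a part of intraflagellar transport, had a log2 fold change of 0.40, and this call ended with DESeq2 and without any 1 library except vehicle 2.

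Hspb6 and Hspb7 are muscle forms and did not pass, although Hspb7 was called lower without luteolin 3 or without vehicle 3. Hspb7 had 0.129, 0 and 0.708 CPM in luteolin corneas, against 1.93, 2.17 and 0.179 CPM in vehicle corneas, so the groups overlapped. Hspb6 had 3.93, 3.25 and 7.08 CPM in luteolin corneas, against 7.88, 7.43 and 4.05 CPM in vehicle corneas. In both genes luteolin 3 was the highest of its group and vehicle 3 the lowest. The summed level of 13 skeletal muscle genes was 18.4, 17.7 and 109.6 CPM in luteolin 1 to 3 and 152, 253 and 15.6 CPM in vehicle 1 to 3, which within each group is the order of libraries seen for Hspb7, and none was at 0 in a whole group. Of the 11 tested muscle genes 0 passed by edgeR, and 0 had an unadjusted p under 0.05. DESeq2, which took in all 13, called 1 lower, and edgeR called 2 of 12 lower without luteolin 3 and 4 of 12 lower without vehicle 3. Hspb2, Hspb3 and Hspb9 had too few reads to test.

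Of the 7 exchange factors outside HSP110 (the Bag genes and Hspbp1), 4 rose and 0 fell. Of all tested genes 28.5% rose and 30.4% fell. The HSP110 genes Hspa4l and Hsph1, given above, fell. Bag2 (gene ID 213539), which restrains the ubiquitin ligase CHIP, had 76.9, 89.4 and 74.0 CPM in luteolin corneas, against 51.3, 56.8 and 52.0 CPM in vehicle corneas (log2 fold change 0.58, SE 0.087, adjusted p = 0.00115). Bag5 (gene ID 70369) had 59.0, 48.0 and 52.4 CPM in luteolin corneas, against 35.7, 40.4 and 33.1 CPM in vehicle corneas (log2 fold change 0.55, SE 0.105, adjusted p = 0.00355). The groups of both genes did not overlap. Bag6, which guides tail-anchored proteins, and Bag3 rose, with log2 fold changes of 0.30 and 0.19. The Bag3 call ended with library sizes only and without any 1 library except vehicle 3, and with limma-trend on FPKM 2 exchange factors rose. Bag1 (-0.05), Bag4 (0.07) and Hspbp1 (-0.25) did not pass. Bag1 was called lower with upper quartile factors, with library sizes only and with limma-trend, and Hspbp1 was called lower without vehicle 2.

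Of the heat shock factors, Hsf2 fell and Hsf1 did not pass. Hsf1 (gene ID 15499), the main regulator of the heat shock response, had 25.9, 26.1 and 28.1 CPM in luteolin corneas, against 27.1, 27.2 and 29.2 CPM in vehicle corneas. These overlapped, with a log2 fold change of -0.06 (SE 0.074, adjusted p = 0.501). Hsf2 (gene ID 15500), a factor of development that pairs with Hsf1, had 3.16, 4.29 and 4.25 CPM in luteolin corneas, against 9.64, 8.25 and 9.53 CPM in vehicle corneas (2.34-fold lower, log2 SE 0.175, adjusted p = 0.000965). Hsf4, known from the lens, was at or under 1.58 CPM in every library and did not pass (log2 fold change -0.60, adjusted p = 0.122). Transcript levels do not show the activity of these factors.

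The J proteins went both ways. Dnajb1 (gene ID 81489), the stress-inducible HSP40, had 159.9, 150.4 and 145 CPM in luteolin corneas, against 113, 112 and 123 CPM in vehicle corneas (log2 fold change 0.39, SE 0.065, adjusted p = 0.00191). Dnajb2 (gene ID 56812), known from neurons, had 60.4, 57.9 and 54.7 CPM in luteolin corneas, against 31.8, 39.7 and 31.8 CPM in vehicle corneas (1.68-fold higher, adjusted p = 0.000761). No library of either gene crossed into the other group's range. Dnaja4 (gene ID 58233) rose 1.72-fold, with 86.3, 77.2 and 82.9 CPM in luteolin corneas against 41.6, 56.5 and 45.3 CPM in vehicle corneas. Dnaja1 (gene ID 15502), the main type A partner of HSC70, went the other way, with 121, 108 and 109.6 CPM in luteolin corneas against 165, 151 and 165 CPM in vehicle corneas (log2 fold change -0.50, SE 0.069, adjusted p = 0.000835). Dnaja2 also fell (-0.22). Of 7 tested type B genes not grouped here with the ER, 3 rose and 0 fell, where 28.5% of all tested genes rose and 30.4% fell. Among the 7, Dnajb6 did not pass, with 191, 192 and 192 CPM in luteolin corneas and 191, 191 and 192 CPM in vehicle corneas. The type B genes Dnajb11, which fell (-0.445), and Dnajb9, which did not pass (-0.023), were counted with the ER genes.

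Type C J proteins, which share only the J domain and have specialised tasks, held the most members that rose. Of the 19 tested genes not grouped here with the ER or mitochondria, 13 rose and 4 fell, where 28.5% of all tested genes rose and 30.4% fell. Their median was 0.34, and it was 0.23 with library sizes only. With library sizes only 7 of the 19 rose, and with limma-trend on log2(FPKM + 1) 7 rose. Of the Dnajc genes grouped with the ER or mitochondria, Dnajc1, Dnajc10, Dnajc15 and Dnajc19 fell, Dnajc3 rose and Dnajc25 did not pass. Dnajc21 (gene ID 78244), which takes part in ribosome assembly, had 72.3, 68.0 and 74.1 CPM in luteolin corneas, against 41.9, 40.6 and 41.9 CPM in vehicle corneas (log2 fold change 0.79, SE 0.059, adjusted p = 9.65e-05). It was the gene with the smallest p of the J proteins, and its groups were far apart. Dnajc16 (gene ID 214063) had 44.8, 46.0 and 42.3 CPM in luteolin corneas, against 27.7, 29.9 and 29.4 CPM in vehicle corneas (adjusted p = 0.000322). Dnajc4 and Dnajc28 rose 1.64-fold and 1.74-fold. The 4 of the 19 that fell were Dnajc2, a ribosome-associated J protein (-0.55), Dnajc9, a histone chaperone (-0.54), Dnajc18 (-0.39) and Dnajc13, of endosomes (-0.24). The call of Dnajc18 ended with DESeq2 and without luteolin 2, luteolin 3, vehicle 1 or vehicle 2, that of Dnajc9 without luteolin 1, luteolin 2, vehicle 1 or vehicle 3, and that of Dnajc13 without luteolin 3. In all, 2 of the 19 fell without luteolin 2, luteolin 3 or vehicle 1.

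All 8 subunits of TRiC/CCT, the double ring that folds actin and tubulin, fell together. Cct2 (gene ID 12461) had 216, 215 and 225 CPM in luteolin corneas, against 359, 287 and 346 CPM in vehicle corneas (log2 fold change -0.60, SE 0.090, adjusted p = 0.00123). Cct5 (gene ID 12465) had 192, 192 and 198 CPM in luteolin corneas, against 309.9, 254 and 289 CPM in vehicle corneas (log2 fold change -0.55, SE 0.080, adjusted p = 0.00107). Tcp1 (gene ID 21454), subunit alpha, had 224, 220.3 and 226 CPM in luteolin corneas, against 373, 285 and 339 CPM in vehicle corneas (log2 fold change -0.57, SE 0.098, adjusted p = 0.00211). Its counts had decimals in all 6 libraries. The 8 log2 fold changes lay between -0.63 (Cct6a) and -0.45 (Cct4), and no subunit overlapped between groups. Such separation held for 67.4% of all tested genes. The sum of the 8 was 1534, 1546 and 1571 CPM in luteolin corneas, against 2501, 1951 and 2327 CPM in vehicle corneas. Vehicle 1 was the highest and vehicle 2 the lowest vehicle library for 8 of the 8 subunits. Cct6b, a testis form, rose from a low level, with 1.61, 0.975 and 0.772 CPM in luteolin corneas against 0.409, 0.351 and 0.417 CPM in vehicle corneas, a call that ended without luteolin 1. Prefoldin, which hands actin and tubulin to TRiC/CCT, had 2 of 6 genes lower, Pfdn4 (-0.42) and Vbp1 (-0.16, a call that ended without any 1 library except vehicle 2), and its median of 0.02 was -0.09 with library sizes only. Of all tested genes 30.4% fell.

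Of the 6 genes grouped here as mitochondrial chaperones, 5 fell, where 30.4% of all tested genes fell. Hspd1 (gene ID 15510), the HSP60 ring, had 137, 131 and 132 CPM in luteolin corneas, against 345, 202 and 279 CPM in vehicle corneas (2.07-fold lower, log2 SE 0.173, adjusted p = 0.00184). Hspe1 (gene ID 15528), its HSP10 lid, had 44.5, 45.2 and 46.2 CPM in luteolin corneas, against 108, 72.9 and 92.8 CPM in vehicle corneas (2.02-fold lower, log2 SE 0.135, adjusted p = 0.00072). The 2 genes, which share a promoter region, kept a TPM ratio of Hspe1 to Hspd1 of 1.51 ± 0.0459 in luteolin corneas and 1.52 ± 0.105 in vehicle corneas (SD, n = 3 each). Hspa9 (gene ID 15526), mortalin, which pulls imported proteins into the matrix, had 187, 177 and 181 CPM in luteolin corneas, against 311, 233 and 280.3 CPM in vehicle corneas (log2 fold change -0.60, SE 0.104, adjusted p = 0.00226). The import motor genes Dnajc15 (-0.62) and Dnajc19 (-0.37) also fell, and Dnaja3 did not pass (0.15, adjusted p = 0.0558). J proteins grouped by type and not by place in the cell were not counted here. Among them Dnajc28 (0.80), Dnajc4 (0.71), Dnajc30 (0.36) and Dnajc11 (0.35) rose. The Dnajc30 call ended with library sizes only and without luteolin 2, luteolin 3 or vehicle 3. That of Dnajc11 ended with limma-trend on log2(FPKM + 1).

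The vehicle libraries kept the same order in most members that fell. Of these 46, vehicle 1 was the highest vehicle library for 36 and vehicle 2 the lowest for 38, while among the 28 members that rose vehicle 2 was the lowest for 11. The summed level of 8 genes of dividing cells was 346, 455 and 510 CPM in luteolin 1 to 3 and 1302, 653 and 1172 CPM in vehicle 1 to 3, so vehicle 1 was highest and vehicle 2 lowest there too. All 8 fell (30.4% of all tested genes fell), with Cdk1 at -1.45 and Ccna2 at -1.46, and their part in the chaperone changes was not tested. Without vehicle 2, 49 members fell and 27 rose. The summed TPM of all 111 members was 9473, 9373 and 9321 in luteolin corneas, against 12411, 10524 and 11474 in vehicle corneas. The median coefficient of variation of the tested members was 5.06% in luteolin corneas and 8.43% in vehicle corneas.

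**Figure D3:**
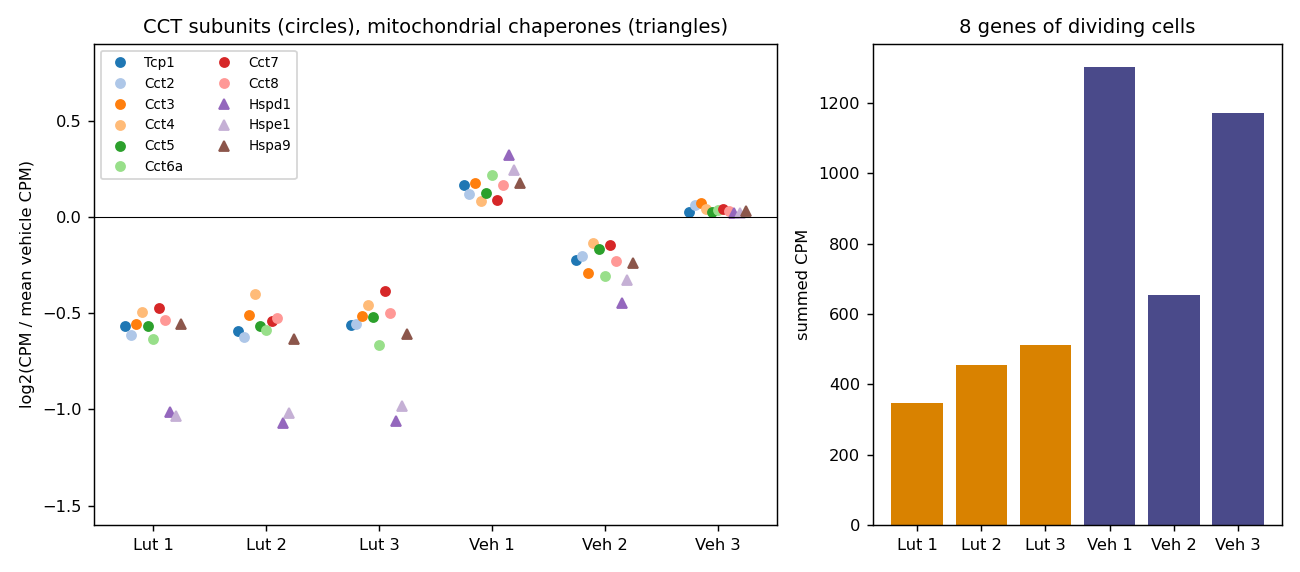
Left, log2 of CPM over the mean vehicle CPM (y axis) for 8 TRiC/CCT subunits (circles) and 3 mitochondrial chaperones (triangles) in each library (x axis, Lut luteolin, Veh vehicle). Right, summed CPM of 8 genes of dividing cells per library: vehicle 2 (653 CPM) is the lowest vehicle library in both panels, and gene by gene the luteolin libraries lie below it.

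Most ER chaperones fell as well, by less than 2-fold apart from Sdf2l1 and Pdia5. The ER stress response element, which is CCAAT and CCACG with 9 bases between them and through which ATF6 is known to act, was searched on both strands of the promoter windows, because it marks the classic targets of the UPR. It occurred in 0.119% of all windows and in 7 of the 90 member genes that had a window, of which 6 fell and 1, Dnajc3, rose. The matches are written with the element's own strand first to last, and capitals mark its fixed bases. Hspa5 is also given in full (chr2:34771840-34772139, plus strand, GRCm38.p6), with the match in capitals.
Hsp90b1 (107 upstream): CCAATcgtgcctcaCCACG
Hsp90b1 (212 upstream): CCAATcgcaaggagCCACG
Pdia6: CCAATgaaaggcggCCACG
Hspa5: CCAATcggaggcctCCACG
Calr: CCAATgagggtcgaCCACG
Creld2: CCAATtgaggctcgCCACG
Canx: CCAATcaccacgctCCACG
Dnajc3: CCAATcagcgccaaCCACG
Hspa5 promoter: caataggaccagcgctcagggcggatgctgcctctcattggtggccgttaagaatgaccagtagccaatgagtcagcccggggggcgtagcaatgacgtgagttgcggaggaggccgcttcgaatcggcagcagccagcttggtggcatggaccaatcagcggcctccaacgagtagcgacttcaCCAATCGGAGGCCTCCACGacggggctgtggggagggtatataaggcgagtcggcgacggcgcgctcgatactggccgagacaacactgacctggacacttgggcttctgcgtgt
In Hspa5 the match began 65 bases before the gene start. The second form of the element, ATTGG and CCACG with 1 base between them, present in 0.0365% of windows, was found in Dnajb11 and Herpud1, which both fell. A match here too is a description of these letters and not a site.

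Hspa5 (gene ID 14828), BiP, the HSP70 of the ER, had 352, 380.1 and 333 CPM in luteolin corneas, against 553, 475 and 502 CPM in vehicle corneas (log2 fold change -0.52, SE 0.081, adjusted p = 0.00139). Its counts had decimals in all 6 libraries. Hsp90b1 (gene ID 22027), GRP94, had 398, 415 and 373 CPM in luteolin corneas, against 752, 588 and 622 CPM in vehicle corneas (1.65-fold lower, log2 SE 0.101, adjusted p = 0.000881). Sdf2l1 (gene ID 64136), a partner of BiP, had 4.13, 4.55 and 5.73 CPM in luteolin corneas, against 13.4, 12.5 and 13.1 CPM in vehicle corneas (2.70-fold lower, log2 SE 0.155, adjusted p = 0.000314). Each of the 3 genes had groups that did not overlap. The J proteins of BiP mostly fell too: Dnajc10, a reductase, by 0.58, Dnajb11 by 0.44 and Dnajc1 by 0.22 on the log2 scale. Dnajc1 lost its call without luteolin 1, luteolin 2, luteolin 3 or vehicle 1, and with DESeq2.

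Dnajc3 (gene ID 100037258), the BiP partner p58IPK, which restrains PERK, was the only gene grouped here as an ER chaperone that rose. It had 165, 151 and 137 CPM in luteolin corneas, against 92.7, 96.5 and 91.4 CPM in vehicle corneas (1.61-fold higher, log2 SE 0.076, adjusted p = 0.000334). Hyou1 (gene ID 12282), GRP170, had 79.8, 81.0 and 73.9 CPM in luteolin corneas, against 90.2, 80.4 and 88.8 CPM in vehicle corneas. Vehicle 2 lay inside the luteolin range, and Hyou1 did not pass (log2 fold change -0.14, SE 0.068, adjusted p = 0.106). It passed without vehicle 2 (-0.19) and with library sizes only (-0.26). Hspa13 (-0.12), Dnajc25 (-0.10) and Dnajb9 (-0.02) did not pass either. J proteins grouped by type and not by place in the cell were not counted here. Among them Dnajc16 (0.61), Dnajc14 (0.26) and Dnajb12 (0.26) rose. The calls of Dnajc14 and Dnajb12 ended with library sizes only and with limma-trend.

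The 6 genes grouped here as lectin chaperones and ER stress targets fell within a narrow range, where 30.4% of all tested genes fell. They are not all of the UPR's targets. Of the 7 member genes with a match to the ER stress response element, 6 fell and Dnajc3 rose. Calr (gene ID 12317), calreticulin, which holds glycoproteins during folding, had 408, 453 and 455 CPM in luteolin corneas, against 652, 578 and 638 CPM in vehicle corneas (log2 fold change -0.51, SE 0.075, adjusted p = 0.00116). Canx (gene ID 12330), its membrane-bound relative calnexin, had 256, 261 and 245 CPM in luteolin corneas, against 376, 311 and 339 CPM in vehicle corneas (log2 fold change -0.43, SE 0.079, adjusted p = 0.00293). Manf (gene ID 74840), a secreted ER stress protein, had 71.6, 76.0 and 76.7 CPM in luteolin corneas, against 114, 98.0 and 99.7 CPM in vehicle corneas. It fell by 0.47 on the log2 scale (adjusted p = 0.00139), Creld2 by 0.49, Herpud1 by 0.37 and Edem1, which selects glycoproteins for degradation, by 0.34. The 6 genes of this group did not overlap between luteolin and vehicle corneas, which held for 67.4% of all tested genes.

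All 5 protein disulfide isomerases of the set, which form and rearrange disulfide bonds, fell, where 30.4% of all tested genes fell. They are the Pdia genes and P4hb. The isomerase-like gene Txndc5, which fell, and Txndc12, which rose, are counted in another list below. Pdia6 (gene ID 71853) had 138, 154 and 149 CPM in luteolin corneas, against 265, 214 and 237 CPM in vehicle corneas (1.63-fold lower, log2 SE 0.089, adjusted p = 0.000595). Pdia3 (gene ID 14827), ERp57, which works with calreticulin and calnexin, had 466, 478 and 456 CPM in luteolin corneas, against 661, 588 and 627 CPM in vehicle corneas (log2 fold change -0.42, SE 0.064, adjusted p = 0.00129). P4hb (gene ID 18453), the founding isomerase and a subunit of collagen prolyl hydroxylase, had 445, 495 and 457 CPM in luteolin corneas, against 604, 524 and 586 CPM in vehicle corneas. The calls of P4hb (-0.30) and Pdia4 (-0.24) both ended without luteolin 1 (adjusted p = 0.0591 and 0.0693) or luteolin 3 (adjusted p = 0.0544 and 0.0716), which left 3 lower isomerases. Pdia5, named here after its values were seen, had the lowest log2 fold change of the members that fell (-2.19, SE 0.341, adjusted p = 0.00142), at 1.68, 2.34 and 0.836 CPM in luteolin corneas against 8.001, 8.19 and 6.02 CPM in vehicle corneas.

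Of the 4 sensors and factors of the UPR, 0 fell and 1 rose, where 30.4% of all tested genes fell and 28.5% rose. The share that rose was near that of all genes, and the 4 are given as values. Xbp1 (gene ID 22433), the transcription factor made active by IRE1 splicing, had 108, 128 and 113 CPM in luteolin corneas, against 96.1, 111 and 105 CPM in vehicle corneas (log2 fold change 0.16, SE 0.084, adjusted p = 0.143). Ern1 (gene ID 78943) had 29.7, 33.8 and 31.8 CPM in luteolin corneas, against 26.3, 31.5 and 27.5 CPM in vehicle corneas (log2 fold change 0.16, SE 0.094, adjusted p = 0.180), and it passed without vehicle 2 (0.24). Eif2ak3 (gene ID 13666) had 36.4, 38.8 and 34.0 CPM in luteolin corneas, against 31.6, 37.3 and 33.7 CPM in vehicle corneas (log2 fold change 0.09, SE 0.087, adjusted p = 0.397). The groups of these 3 genes overlapped. Atf6 (gene ID 226641) had 57.8, 60.2 and 62.9 CPM in luteolin corneas, against 50.6, 49.0 and 52.0 CPM in vehicle corneas, and it rose (log2 fold change 0.26, SE 0.060, adjusted p = 0.00873). Its call ended with library sizes only (0.14, adjusted p = 0.0790). It also ended with limma-trend on log2(FPKM + 1) (0.12, adjusted p = 0.171) and with a pseudocount of 0.1 (0.14, adjusted p = 0.173). Gene-level values do not separate spliced from unspliced Xbp1.

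**Figure D4:**
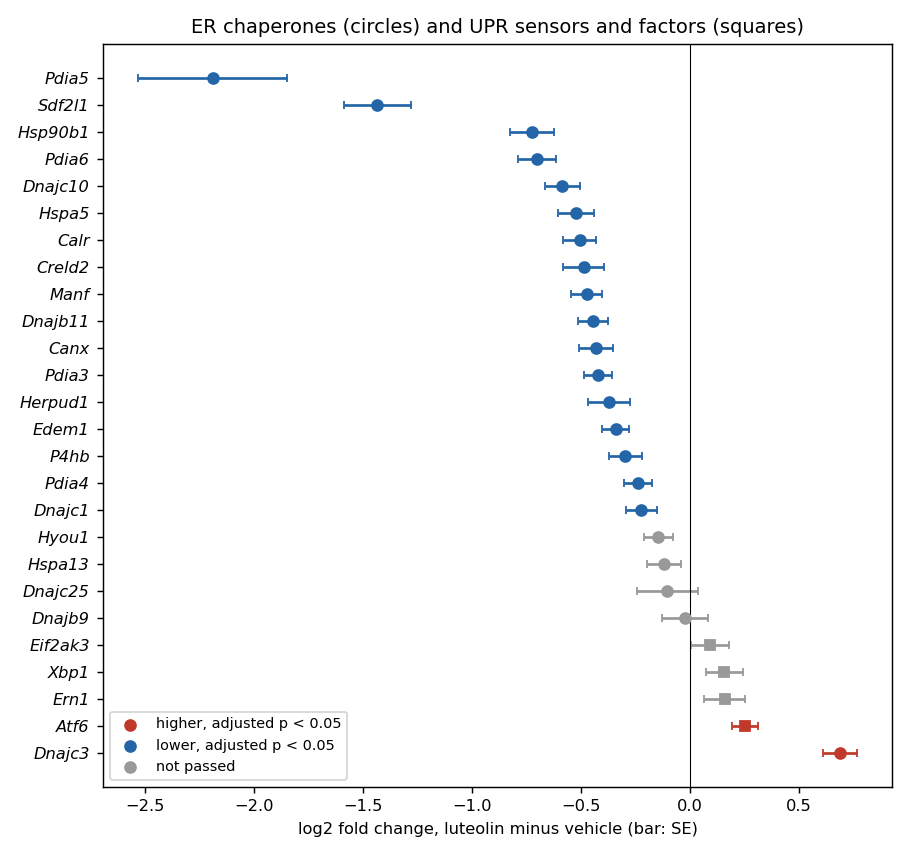
Log2 fold change with its SE (x axis, luteolin minus vehicle) of the 26 members grouped here as ER genes (y axis). Circles mark chaperones and squares the UPR sensors and factors, and J proteins grouped by type are not shown. Of the 26 members, 17 lie left of 0 as lower calls and 7 in grey did not pass. Dnajc3 (0.69) and Atf6 (0.26, not called with library sizes only or with limma-trend) are higher.

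Other genes of ER protein handling went both ways, where 30.4% of all tested genes fell and 28.5% rose. Of 16 genes of the translocon, through which proteins enter the ER, and of ATF6 processing, 10 fell and 3 rose, with a median of -0.23. Ssr4, a translocon-associated subunit, had 42.4 CPM in luteolin corneas and 69.1 CPM in vehicle corneas (log2 fold change -0.71, adjusted p = 0.000185), while Wfs1, the wolframin gene, had 227 CPM in luteolin corneas and 110.5 CPM in vehicle corneas (log2 fold change 1.03, adjusted p = 0.000253). Of 16 tested genes of ER-associated degradation 9 rose and 1 fell, with a median of 0.21. Ube2j1, a ubiquitin-conjugating enzyme of the ER, rose by 0.47 and Selenos by 0.49 on the log2 scale. The number that rose was 4 with library sizes only and 5 without luteolin 1 or vehicle 3, and the 1 that fell, Selenok (-0.15), lost its call with DESeq2 and without vehicle 2 or any 1 luteolin library.

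Of 16 tested genes of oxidative and glycoprotein folding, 6 fell and 3 rose, with a median of -0.12. Over all tested genes 30.4% fell and 28.5% rose, and the genes of this list are given as values. Txndc5, an isomerase-like protein, was at -0.57 (adjusted p = 0.00103) and Txndc12 at 0.46 (adjusted p = 0.00123). The number that fell was 3 with DESeq2, 10 with library sizes only and 3 without luteolin 1 or vehicle 3. In the list for the PERK and CHOP arm, which halts translation and can end in cell death, 5 of 10 genes fell and 0 rose, with a median of -0.33. The 5 include Eif2a (-0.28), which encodes a separate initiation factor and not a subunit of eIF2. Nfe2l2, the NRF2 gene and a PERK target, was at -0.38 and Eif2s1, the alpha subunit of eIF2, at -0.48. Ddit3, the CHOP gene, had 9.48 CPM in luteolin corneas and 12.3 CPM in vehicle corneas (log2 fold change -0.37, adjusted p = 0.0234), a call that ended without luteolin 1 or luteolin 3, and Atf4 did not pass (-0.14). Chac1 (0.415), Trib3 (0.22) and Ppp1r15a (0.158) lay above 0 and did not pass either. Without luteolin 1, 3 fell and 1 rose.

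Marker transcripts of several cell types also differed between the groups, where 30.4% of all tested genes fell and 28.5% rose. All 10 macrophage genes fell, with a summed level of 44.9 to 73.4 CPM in luteolin corneas and 389 to 789 CPM in vehicle corneas. All 4 tested neutrophil genes fell, at 1.24 to 2.38 CPM in luteolin corneas, where S100a8, Ly6g and Retnlg were at 0, and 32.9 to 49.0 CPM in vehicle corneas. Of 7 smooth muscle and pericyte genes 6 fell, at 44.8 to 61.8 CPM in luteolin corneas and 204 to 360.0 CPM in vehicle corneas. Of 5 tested conjunctiva and goblet cell genes 3 fell, at 1793 to 2778 CPM in luteolin corneas and 4192 to 4495 CPM in vehicle corneas. Keratocyte genes had 2 lower and 1 higher of 8 (4 lower without luteolin 2, 5 without vehicle 3 and 1 without any other library), at 2095 to 4459 CPM in luteolin corneas and 3375 to 8786 CPM in vehicle corneas, and corneal endothelium genes 1 lower of 6 (0 without luteolin 2, luteolin 3 or vehicle 1, and 2 without vehicle 3), at 784 to 915 CPM in luteolin corneas and 928 to 1100.1 CPM in vehicle corneas. Plasma and B cells, which carry much ER chaperone, were at or under 2.40 CPM in luteolin corneas and 2.22 CPM in vehicle corneas over 8 genes, with Mzb1 at 0 in luteolin corneas and Cd79a at 0 in vehicle corneas. Of 8 immediate early genes, signs of handling, 4 fell and 4 did not pass, with Jun (-0.39) and Atf3 (-2.28) the lowest in p, while 1 fell without luteolin 2 and 2 fell without luteolin 3, vehicle 2 or vehicle 3. The part of these lists in the chaperone changes was not tested.

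The 12 members that were not tested had at most 35 counts over a group. They were Dnajb3, Dnajb7, Dnajb13, Dnajc5b, Dnajc22, Hspb2, Hspb3, Hspb9, Hsf3, Hsf5, Hsf2bp and Cct8l1, several of them known from testis. Hspbap1, which binds small heat shock protein, had 14.8, 12.9 and 15.7 CPM in luteolin corneas, against 16.2, 12.99 and 17.9 CPM in vehicle corneas, and did not pass (log2 fold change -0.12, adjusted p = 0.508). Besides the genes named above, Dnajc30, Dnajc14, Dnajc7, Dnajc1, Hspa1l, Hspb11, Cct7 and Cct8 had counts with decimals in at least 1 library, so some reads were shared with other genes.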

How the data were processed

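Per the labels' protocols, TruSeq libraries were made from Trizol-extracted RNA of flash-frozen whole corneas. Alignment and counting tools listed are RSEM 1.2.12 and Bowtie2 2.2.5, with the build mm9, per the submitters' processing notes. For annotation and strand, the sources used here give nothing. The authors deposited estimated counts, FPKM and TPM per gene. Their estimated counts had decimals (over 0.001 from a whole number) in 10.3% to 10.8% of values. The file headers only name the values FPKM and TPM. By the usual definitions FPKM are scaled by length and depth, and TPM to a common total. A further 14 columns of normalized counts and group averages were not used.

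After rounding, the counts went into edgeR 4.0.16 (R 4.3.3): filterByExpr (minimum count 10, total 15) kept 13838 genes, with TMM factors, the quasi-likelihood test and no replicate block. SEs were taken from the fold change and its F statistic. CPM are counts scaled by the TMM factors. Alternatives used DESeq2 1.42.0, limma 3.58.1, other factors and filters, a skeletal muscle covariate, a replicate block and each library left out. The test was checked on simulated data. The number of a library did not pair the groups.

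Genes named were key chaperones, the 8 largest changes each way (mean of at least 5 CPM, groups not overlapping), and the 2 smallest p per family or pathway list; other members named, and those whose calls ended, were chosen after their values were seen. Members, families and the 19 lists were chosen with earlier results of these data known. Promoter windows came from RefSeq GRCm38.p6; 90 of 111 members matched by symbol.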

Additional observations from a re-analysis of the deposited data

How the results depend on the processing

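No called member changed sign under any of the alternatives run. With DESeq2 27 members rose and 44 fell. The median log2 fold change of the members was -0.33 with upper quartile factors, -0.35 with library sizes only, -0.31 with limma-trend on log2(FPKM + 1) and -0.36 with a pseudocount of 0.1, and the members that rose numbered 18, 17 and 18 under the last 3 of these; in all 4 the median of all tested genes was also lower, between -0.14 and -0.11. Leaving out each library in turn gave 21 to 27 members that rose, 41 to 49 that fell, medians of -0.26 to -0.21 and 6795 to 8493 called genes of all tested. Library numbers did not pair the groups (correlations of -0.15, 0.03 and 0.01), and the fit with the replicate block called 26 members higher and 44 lower, with a median of -0.23, and 7934 genes in all. With a skeletal muscle covariate 25 rose and 43 fell. Of 752 alternative values of the 47 genes under the naming rule, 8 passed the threshold where the main value did not and 8 no longer passed. At this depth 12 members had too few reads to test.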

Other observations

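Of 13 genes of the circadian clock and of the response to temperature, both known to bear on heat shock gene levels, 4 rose and 4 fell. Of all tested genes 28.5% rose and 30.4% fell, so the list's share was near that of all genes, and its members are given as values. Arntl, the BMAL1 gene of the clock, had 53.4, 60.3 and 63.4 CPM in luteolin corneas, against 7.77, 9.66 and 5.90 CPM in vehicle corneas (log2 fold change 2.92, SE 0.167, adjusted p = 4.54e-05). Cirbp, a cold-inducible RNA-binding protein, had 100.1, 109.5 and 104.7 CPM in luteolin corneas, against 41.3, 45.8 and 45.6 CPM in vehicle corneas (log2 fold change 1.24, SE 0.067, adjusted p = 4.15e-05). The groups of both genes were far apart. Rbm3, also known as cold-inducible, averaged 453 CPM in luteolin corneas and 877 CPM in vehicle corneas and fell by 0.95 on the log2 scale. Npas2 and Cry1 rose by 1.37 and 0.69, and Dbp, Per2 and Ciart fell by 1.12, 0.85 and 1.27 on the log2 scale. Those that fell numbered 7 without luteolin 1 and 2 without luteolin 2, luteolin 3 or vehicle 3. The time of day of tissue collection is not given in the labels, and the part of these genes in the chaperone changes was not tested.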
